A study of Mus musculus with 18 samples.

Results

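A set of liver genes that feed carbon and reducing power into fat synthesis, or act on its products, were followed across diet and methotrexate: Pklr, Slc25a1, Acly, Acaca, Me1, Thrsp, Fads1 and Pnpla3. They were taken as a named set of 8 genes out of 21153 named mouse genes with a probe on the array, and all 14 of their probes, covering all 8 genes, passed the filter on dim probes. Pnpla3, Acaca and Acly were lower in the livers of high fat diet mice than in those of low fat diet mice. After methotrexate, each gene read on its brightest probe, Acly and Me1 were lower on the low fat diet, and Pklr and Fads1 were lower on the high fat diet. Both dimmer probes of Me1 were lower on the high fat diet as well. Of these 4 genes the drug effect was called different between the diets for Acly alone, on its brightest probe. Such a call was made for 26.8% of all genes tested. For Acly it was lost under several other ways of processing, and the dimmer Acly probe gave the opposite sign without a call. On the brightest probes, the calls of diet alone and of the drug on the low fat diet were lost when the array slide entered the fit as a random block. Those of Pklr and Fads1 on the high fat diet were lost when single untreated high fat diet mice were left out. Methotrexate is a folate antagonist used as chemotherapy, and the study asked how it alters liver metabolism in obese mice.

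Total liver RNA of 18 male C57BL/6 mice was hybridised to 18 one-colour Agilent arrays, 1 mouse per array. LFD mice (n = 4) ate a 10% fat diet and HFD mice (n = 4) a 60% fat diet from 6 weeks of age, and neither is labelled as treated, with no vehicle injection given in the sources used here. LFD-MTX50 mice (n = 5) and HFD-MTX50 mice (n = 5) ate the same diets and, after 10 weeks, received 5 intraperitoneal rounds of methotrexate at 50 mg/kg, with the liver taken 1 week after the last round. All 4 groups share strain, sex and the age at which the diet began, and all were whole livers, so fewer cells of a type and less RNA per cell cannot be told apart. Whether the animals were fasted, and the hour of harvest, is not given in the sources used here.

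In a fed liver, glucose is broken down to pyruvate, which enters the mitochondrion and leaves it again as citrate. Cytosolic citrate is cleaved to acetyl-CoA, acetyl-CoA is carboxylated to malonyl-CoA, and fatty acid synthase builds palmitate from malonyl-CoA with NADPH. The genes of this route are known to be raised together by insulin and carbohydrate through SREBP-1c (Srebf1) and ChREBP (Mlxipl), and to be low in fasting and under dietary polyunsaturated fat.

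The arrays were spread over 6 slides. Only 1 slide held more than 1 diet and treatment group, namely HFD mice 3 and 4 with HFD-MTX50 mice 1 and 2, so in every comparison with an LFD or LFD-MTX50 group the slide and the group cannot be told apart. Levels are log2 signal relative to the 75th percentile of the same array, which lay between 1203 and 2263 intensity units, and 83.9% to 90.6% of probes were well above background. The median over all kept probes moved by 0.12 on the log2 scale in HFD vs LFD, by 0.16 with the drug on the low fat diet, by −0.06 in HFD-MTX50 vs HFD and by −0.11 in HFD-MTX50 vs LFD-MTX50. Of the called probes, 67% were higher in the diet comparison HFD vs LFD, and 70.7% in the low fat drug comparison. After quantile normalization the same shares were 49.4% and 51.8%, and after scaling by the median of probes seen above background throughout they were 50.7% and 52.5%. Of the probes whose drug effect differed between the diets, 25.1% had the higher value on the high fat diet, and 39.6% and 40.8% under these 2 scalings. Of the hepatocyte marker list all 8 genes were above background on every array, and their summed level was 766 to 1270 times the 75th percentile across the 18 livers, with 1 of 8 called lower in HFD vs LFD and 3 of 8 called lower in HFD-MTX50 vs LFD-MTX50.

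A level of one probe cannot be set against that of another, so only differences between groups are compared. Where a gene has several probes, the brightest stands for the gene and the others are given beside it. A difference is called where limma's adjusted p, over all 35738 kept probes, was below 0.05. Exact permutation tests on single genes are two-sided and cannot go below 0.029 with 4 against 4 mice, or below 0.0079 with 4 or 5 against 5. Under normexp background correction, which raised the median level of kept probes by up to 1.73 on some arrays, Acly and Me1 in LFD-MTX50 vs LFD kept their calls. The members' other calls on their brightest probes were lost there, as were nearly all calls on the array. With normexp limma called 2 probes in HFD vs LFD (10225 in the reported fit), 0 in HFD-MTX50 vs HFD (4010) and 1 in HFD-MTX50 vs LFD-MTX50 (6028). In LFD-MTX50 vs LFD it called 512 (10482), and 0 probes for the difference of the drug effects (9971). Some differences shrank, with Pklr at −0.04 in HFD-MTX50 vs HFD and −0.06 in HFD-MTX50 vs LFD-MTX50, and Pnpla3 at −0.79 in HFD vs LFD and 0.17 in HFD-MTX50 vs LFD-MTX50. Others kept or gained size while losing the call, with Acly at −1.25 and Acaca at −1.58 in HFD vs LFD and Fads1 at −0.94 in HFD-MTX50 vs HFD.

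Promoter sequence was examined because several of these genes are textbook targets of SREBP-1c and ChREBP. RefSeq (GRCm38.p6) gave 9 windows for 7 of the 8 genes. In the 250 bases before each start, on both strands, the sterol response element TCACNCCAC was in none of the 9 windows (in 1.05% of 32851 windows of all genes), and the E-box CACGTG was in that of Slc25a1 alone (6.02% of all windows). The NF-Y box CCAAT was in the windows of Thrsp, Slc25a1 and Pnpla3 and in 1 of 2 windows each of Me1 and Pklr (33.8% of all windows). The GC box GGGCGG was in those of Acly, Slc25a1 and Pnpla3 and in 1 of the Me1 windows (32.7% of all windows). No match says only that these letters are absent from that window, and a match is not a site. Only exact matches were searched, so the absence of CACGTG says nothing of inexact or paired E-box forms in Pklr or any other member. The windows of 4 genes are shown: Acly, whose drug effect was called different between the diets, Thrsp and Pnpla3, with wide drug and diet differences on the probe read, and Slc25a1, the member with an E-box. Capitals mark the matched motifs on either strand, and each run ends at the base before the start.
Acly, chr11:100528001-100528250, minus strand: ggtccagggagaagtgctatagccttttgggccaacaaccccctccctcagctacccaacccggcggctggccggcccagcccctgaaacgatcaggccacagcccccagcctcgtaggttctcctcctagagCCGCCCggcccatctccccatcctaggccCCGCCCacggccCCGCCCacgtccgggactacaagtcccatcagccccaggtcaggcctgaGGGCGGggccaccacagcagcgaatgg
Thrsp, chr7:97417551-97417800, minus strand: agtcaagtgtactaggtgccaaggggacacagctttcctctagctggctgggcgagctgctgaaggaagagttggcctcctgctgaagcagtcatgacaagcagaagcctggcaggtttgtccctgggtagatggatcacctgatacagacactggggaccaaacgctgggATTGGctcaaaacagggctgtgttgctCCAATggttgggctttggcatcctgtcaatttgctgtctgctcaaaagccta
Pnpla3, chr15:84167566-84167815, plus strand: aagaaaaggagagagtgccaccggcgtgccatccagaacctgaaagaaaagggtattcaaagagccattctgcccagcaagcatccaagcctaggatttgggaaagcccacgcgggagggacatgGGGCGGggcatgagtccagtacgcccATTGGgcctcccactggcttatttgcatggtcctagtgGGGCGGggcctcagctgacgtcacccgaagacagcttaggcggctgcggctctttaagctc
Slc25a1, chr16:17928220-17928469, minus strand: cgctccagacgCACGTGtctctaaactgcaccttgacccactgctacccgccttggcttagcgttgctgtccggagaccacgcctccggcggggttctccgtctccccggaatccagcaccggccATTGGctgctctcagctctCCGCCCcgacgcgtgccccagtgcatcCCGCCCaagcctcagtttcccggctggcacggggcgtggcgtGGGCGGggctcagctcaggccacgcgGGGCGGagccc

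**Figure D1:**
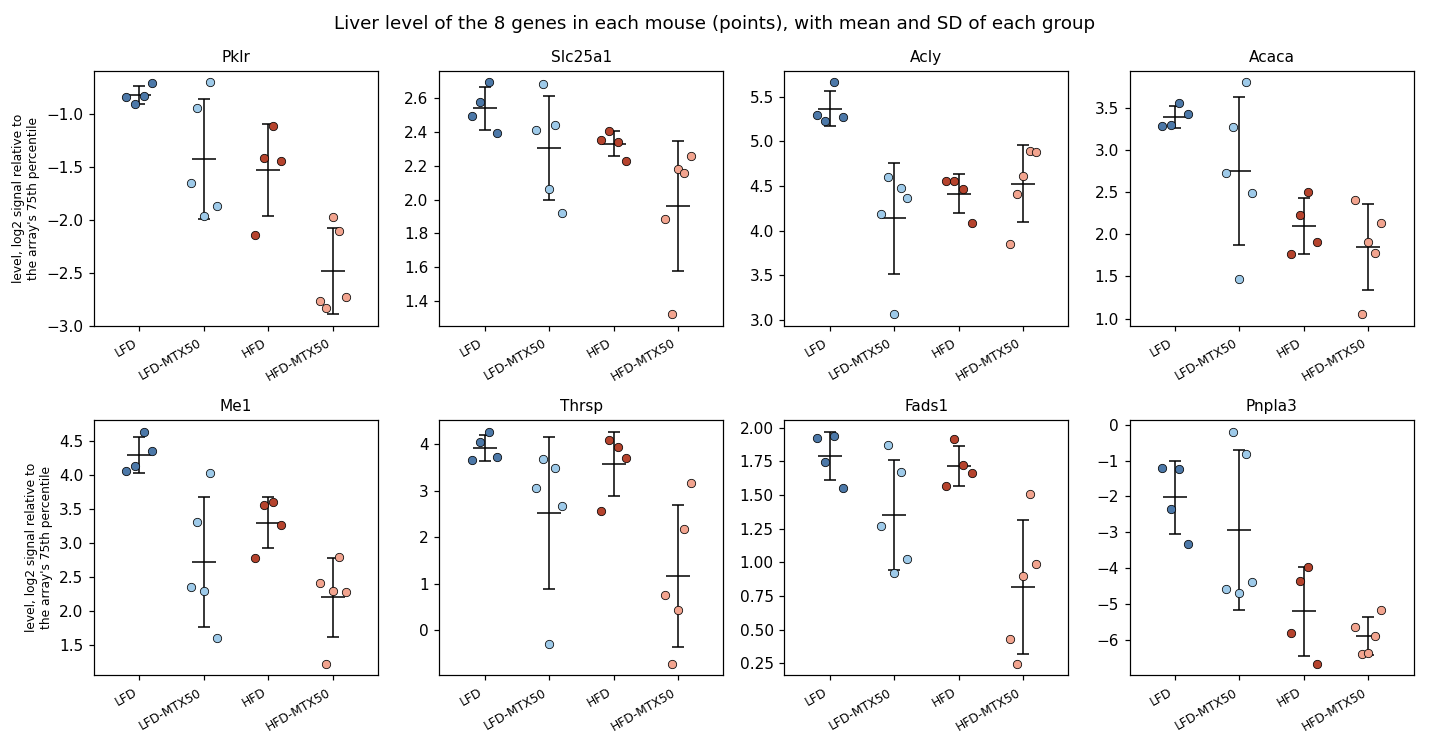
Level of each gene on its brightest probe, as log2 signal relative to the array's 75th percentile (vertical axis, a separate scale for each gene), in the 4 groups (horizontal axis). Points are mice and bars are the mean with 1 SD. Pklr runs from −0.82 on average in LFD to −2.48 in HFD-MTX50, and Acly is highest in the LFD mice, at 5.37 on average against 4.14 to 4.53 in the other groups.

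Pklr, the liver pyruvate kinase that carries out the last step of glycolysis, was lowest in the livers that had both the high fat diet and methotrexate. Its level was −0.84, −0.91, −0.83 and −0.71 in the 4 LFD mice, and −2.14, −1.41, −1.11 and −1.45 in the 4 HFD mice. In the LFD-MTX50 mice it was −1.66, −0.95, −1.96, −0.71 and −1.87, and in the HFD-MTX50 mice −2.77, −2.84, −1.97, −2.11 and −2.73. LFD-MTX50 mice 2 and 4 lay among or close to the LFD mice and the other 3 well below them, while 4 of the 5 HFD-MTX50 mice lay at or below −2.11. With methotrexate on the high fat diet Pklr fell by 0.95 ± 0.27 (SE) on the log2 scale, or 1.94-fold (limma adjusted p 0.034, and 0.04 by exact permutation). The difference was −1.52 on the shared slide and −0.49 on the others. Without HFD mouse 2, 3 or 4, or without HFD-MTX50 mouse 2 or 5, the call over all slides was lost, with adjusted p from 0.054 to 0.13. Between the treated groups, HFD-MTX50 was 2.08-fold below LFD-MTX50 with no overlap (log2 difference −1.06 ± 0.25, limma adjusted p 0.015, and 0.0079 by exact permutation). The difference between diets without the drug, −0.71 ± 0.28, had an adjusted p of 0.069 although no HFD mouse overlapped an LFD mouse, and that of LFD-MTX50 vs LFD was −0.60 ± 0.27 (adjusted p 0.096).

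Slc25a1, the mitochondrial citrate carrier that exports citrate to the cytosol, was called in no comparison. Its levels were 2.49, 2.58, 2.70 and 2.39 in LFD, and 2.35, 2.41, 2.34 and 2.23 in HFD. They were 2.41, 2.68, 2.06, 2.44 and 1.92 in LFD-MTX50, and 1.89, 1.32, 2.18, 2.16 and 2.26 in HFD-MTX50. HFD-MTX50 mouse 2 was the lowest liver, and the groups overlapped in each of the 4 comparisons. The differences were −0.21 in HFD vs LFD (95% confidence interval −0.61 to 0.19), −0.24 in LFD-MTX50 vs LFD (−0.61 to 0.14), −0.37 in HFD-MTX50 vs HFD (−0.75 to 0) and −0.34 in HFD-MTX50 vs LFD-MTX50 (−0.70 to 0.01), with limma adjusted p between 0.16 and 0.40. On the shared slide HFD-MTX50 vs HFD was −0.68, and on the others −0.18. A limma fit with the slide as a fixed block (adjusted p 0.049) estimates that same shared-slide difference, because no other slide held both groups.

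Acly, ATP citrate lyase, cleaves citrate to acetyl-CoA and oxaloacetate. On the brightest probe it stood at 5.30, 5.23, 5.66 and 5.28 in the LFD mice and at 4.56, 4.55, 4.46 and 4.09 in the HFD mice. It stood at 4.19, 4.60, 3.06, 4.47 and 4.37 in LFD-MTX50 and at 3.85, 4.41, 4.61, 4.89 and 4.88 in HFD-MTX50. All 4 LFD livers were above all 14 others. Acly was 1.93-fold lower in HFD than in LFD (log2 difference −0.95 ± 0.28, limma adjusted p 0.022, and 0.029 by exact permutation), a call that was lost without LFD mouse 3 or HFD mouse 3 or 4, and with slide as a random block in the fit (−0.88, adjusted p 0.15). Methotrexate on the low fat diet lowered it 2.34-fold (−1.23 ± 0.27, limma adjusted p 0.0056, and 0.0079 by exact permutation), and this call held in each of the 18 fits that left out 1 array but was lost with slide as a random block (−1.19, adjusted p 0.084). On the high fat diet the drug gave 0.11 ± 0.27, with a 95% confidence interval of −0.45 to 0.68 (limma adjusted p 0.80). It gave −0.15 on the shared slide and 0.24 on the others. The difference between the 2 drug effects was 1.34 ± 0.38 on the log2 scale (limma adjusted p 0.019).

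The second Acly probe did not follow the first. The array design assigns it to another RefSeq transcript of the gene, and its signal was 72.4 to 252.6 intensity units, well above background on all 18 arrays. It read −3.96, −3.36, −3.33 and −3.47 in HFD and −4.11, −4.30, −4.34, −4.22 and −4.05 in HFD-MTX50, so that every treated liver was below every untreated one. There the drug lowered the signal by 0.67 ± 0.15 on the log2 scale (limma adjusted p 0.017, and 0.0079 by exact permutation, −0.80 on the shared slide), where the brighter probe had given 0.11. In LFD-MTX50 vs LFD the dim probe gave −0.30 ± 0.15 (adjusted p 0.15), and the difference between the drug effects was −0.38 ± 0.22 (adjusted p 0.20), opposite in sign to that of the bright probe. The direction of Acly with methotrexate on the high fat diet therefore depended on the probe read.

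Acaca, acetyl-CoA carboxylase 1, makes malonyl-CoA, the committed step of fatty acid synthesis. Its levels were 3.29, 3.29, 3.55 and 3.42 in LFD and 1.76, 2.23, 2.50 and 1.91 in HFD. With the drug they were 2.72, 3.27, 1.46, 3.80 and 2.49 on the low fat diet and 2.40, 1.05, 1.91, 1.77 and 2.14 on the high fat diet. No HFD liver reached an LFD liver, whereas the LFD-MTX50 livers ran from the highest of all 18 (mouse 4) to one of the lowest (mouse 3). HFD was 2.44-fold below LFD (log2 difference −1.29 ± 0.37, limma adjusted p 0.019, and 0.029 by exact permutation), and without HFD mouse 4 the adjusted p was 0.058. Of the dimmer probes, one gave −1.04 ± 0.33 (adjusted p 0.027) and the other −0.81 ± 0.33 (adjusted p 0.078). The drug comparison gave −0.25 ± 0.35 on the high fat diet (95% confidence interval −0.99 to 0.50, adjusted p 0.66, −0.48 on the shared slide and −0.06 on the others) and −0.64 ± 0.35 on the low fat diet (−1.39 to 0.10, adjusted p 0.17). Between the treated groups the brightest probe gave −0.89 ± 0.33 (adjusted p 0.072) and both dimmer probes were called, at −0.91 (adjusted p 0.046) and −1.25 (adjusted p 0.014).

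Me1, cytosolic malic enzyme, turns malate to pyruvate and yields NADPH. It read 4.06, 4.13, 4.64 and 4.35 in LFD and 2.78, 3.56, 3.60 and 3.27 in HFD. After methotrexate it read 2.35, 3.31, 2.30, 4.03 and 1.60 on the low fat diet and 2.41, 1.22, 2.29, 2.80 and 2.28 on the high fat diet. All treated and all high fat livers were below every LFD liver, LFD-MTX50 mouse 4 by the narrowest margin. Methotrexate on the low fat diet lowered Me1 2.98-fold (log2 difference −1.58 ± 0.39, limma adjusted p 0.01, and 0.016 by exact permutation). The other probes gave 3.65-fold (adjusted p 0.0026) and 2.90-fold (adjusted p 0.012), and the call of the brightest probe held in all 18 fits that left out 1 array. It was lost with slide as a random block (−1.73, adjusted p 0.086) and with the methods' t-test after Benjamini-Hochberg adjustment (adjusted p 0.053). On the high fat diet the brightest probe fell short of the threshold, at −1.10 ± 0.39 (limma adjusted p 0.075, and 0.024 by exact permutation, −1.61 on the shared slide and −0.71 on the others). Both other probes passed there, at −1.52 ± 0.34 (adjusted p 0.016) and −1.30 ± 0.40 (adjusted p 0.047), as did the mean of the probes (−1.3, adjusted p 0.037). The drug effects on the 2 diets differed by 0.48 ± 0.56 on the brightest probe (adjusted p 0.54). HFD vs LFD gave −1.0 ± 0.41 on the brightest probe (adjusted p 0.078) with no overlap of the groups.

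Thrsp, also called Spot 14, is a small protein that is induced by thyroid hormone and carbohydrate and promotes lipogenesis. It was 3.65, 4.04, 4.26 and 3.73 in LFD, and 2.56, 4.09, 3.94 and 3.69 in HFD. It was 3.05, 3.68, −0.29, 3.49 and 2.67 in LFD-MTX50, and 0.77, −0.71, 0.43, 2.18 and 3.17 in HFD-MTX50. The untreated groups covered the same range apart from HFD mouse 1, and 4 of the 5 HFD-MTX50 livers were below all untreated livers. The drug difference on the high fat diet was 5.30-fold, with a log2 value of −2.40 ± 0.76 and a 95% confidence interval of −4.01 to −0.80. It did not pass the threshold (limma adjusted p 0.051, and 0.032 by exact permutation), and it was −3.79 on the shared slide and −1.40 on the others. Over the other settings the adjusted p ran from 0.039 to 0.38, and the difference was called in 5 of 15. Among those was the rule of 2-fold and unadjusted p up to 0.015, where limma's adjusted p stayed at 0.051. On the low fat diet the difference was −1.40 ± 0.76 (adjusted p 0.17), and it shrank to −0.69 without mouse 3. Diet alone gave −0.35 ± 0.80 (−2.04 to 1.35, adjusted p 0.76).

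Fads1, the delta-5 desaturase of polyunsaturated fatty acids, fell with the drug on the high fat diet. Its levels were 1.93, 1.74, 1.94 and 1.56 in LFD and 1.57, 1.91, 1.72 and 1.66 in HFD. They were 1.27, 1.88, 0.92, 1.67 and 1.03 in LFD-MTX50 and 0.43, 0.25, 0.90, 1.51 and 0.99 in HFD-MTX50. No HFD-MTX50 liver reached an HFD liver. The fall was 1.87-fold (log2 difference −0.90 ± 0.23, limma adjusted p 0.024, and 0.016 by exact permutation), with −1.35 on the shared slide and −0.61 on the others. Without HFD mouse 2, 3 or 4 the call was lost, with adjusted p from 0.058 to 0.081. LFD-MTX50 vs LFD gave −0.44 ± 0.23 (adjusted p 0.15) and HFD vs LFD −0.08 ± 0.24 (95% confidence interval −0.59 to 0.44, adjusted p 0.83), the latter turning to 0.03 under quantile normalization.

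Pnpla3, a lipid droplet protein of the patatin-like phospholipase family whose transcription follows SREBP-1c, was lower in HFD than in LFD on both of its probes, by very different amounts. The brightest probe read −1.19, −2.35, −1.23 and −3.31 in LFD and −5.81, −4.37, −3.98 and −6.67 in HFD. After methotrexate it read −4.58, −0.19, −4.69, −0.82 and −4.40 on the low fat diet and −5.64, −6.41, −6.37, −5.89 and −5.17 on the high fat diet. The LFD-MTX50 livers fell apart, with mice 2 and 4 above every LFD liver and mice 1, 3 and 5 below every LFD liver. The probe was well above background on all LFD and LFD-MTX50 arrays, on 3 of 4 HFD arrays and on 3 of 5 HFD-MTX50 arrays. The second probe, which was above background on all 18 arrays, gave a 1.82-fold difference in HFD vs LFD (−0.86 ± 0.29, limma adjusted p 0.035), beside 2.44-fold for Acaca and 1.93-fold for Acly on their brightest probes. The brightest probe gave −3.18 ± 0.93 (limma adjusted p 0.02, and 0.029 by exact permutation), in part from values not well above background, and without LFD mouse 3 or HFD mouse 4 the adjusted p was 0.052 and 0.073. HFD-MTX50 was below LFD-MTX50 on both probes with no overlap. The fully measured probe gave 2.06-fold (adjusted p 0.016), and the brightest −2.96 ± 0.83 (limma adjusted p 0.027, and 0.0079 by exact permutation), again in part from values not well above background and turned to 0.17 by normexp. The brightest probe lost that call without LFD-MTX50 mouse 2 or 4 or HFD-MTX50 mouse 3 or 4, with adjusted p from 0.056 to 0.063. Neither drug comparison was called, at −0.91 ± 0.88 on the low fat diet and −0.69 ± 0.88 on the high fat diet (adjusted p 0.44 and 0.62, −0.70 on the shared slide).

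**Figure D2:**
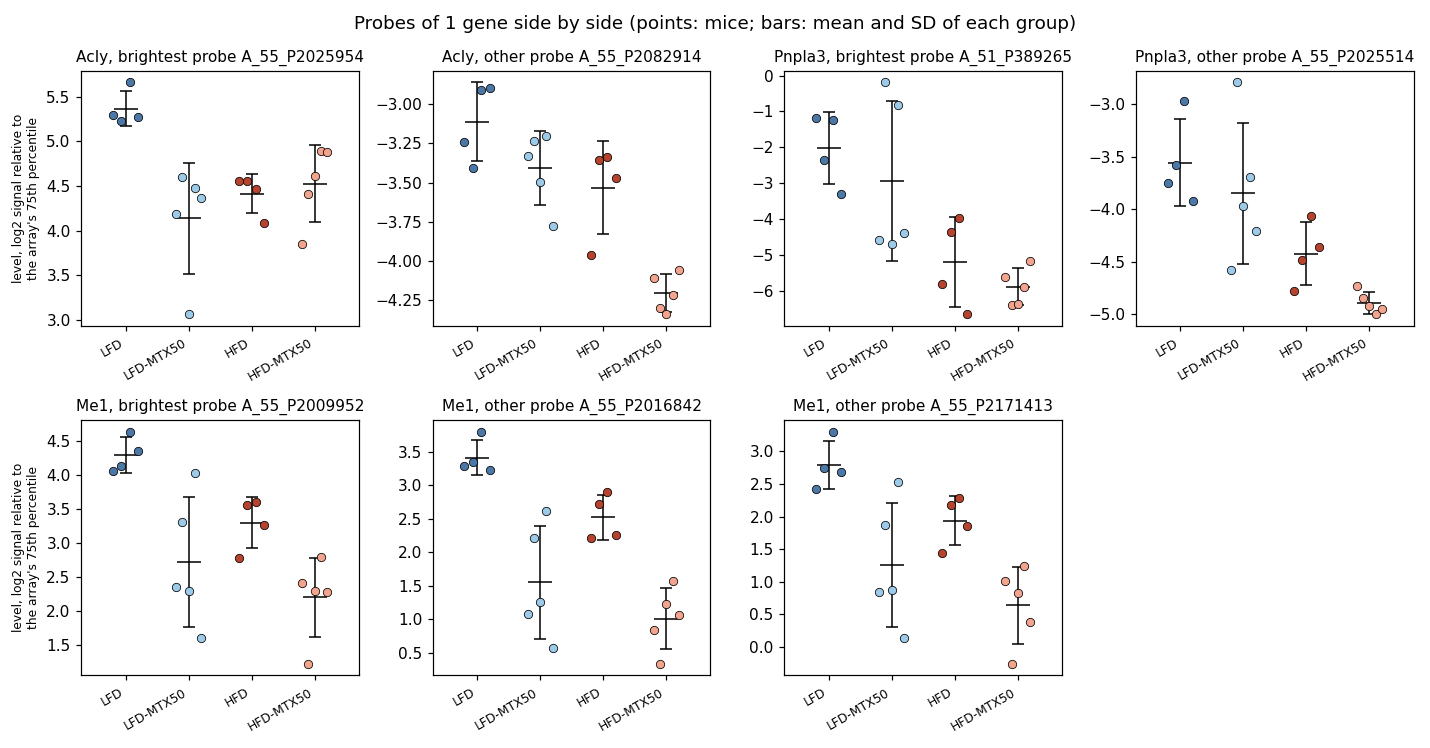
Probes of Acly, Pnpla3 and Me1 side by side, each panel 1 probe, with log2 signal relative to the array's 75th percentile (vertical axis, a separate scale for each probe) in the 4 groups (horizontal axis). Points are mice and bars are the mean with 1 SD. The brightest Acly probe averages 4.41 in HFD and 4.53 in HFD-MTX50, while the dim one averages −3.53 and −4.20. The 3 Me1 probes show the same order of groups.

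In HFD vs LFD, Acly, Acaca and Pnpla3 were lower, that is 3 of the 8 genes called lower and 0 called higher, where 10.4% of all 19597 genes tested were called lower and 18% called higher. All 8 differences were negative, with a median of −0.83 on the log2 scale beside 0.08 over all genes. In 5 of the 8 genes every HFD liver lay below every LFD liver, against 16.2% of all genes that lay lower without overlap. The count was 1 without LFD mouse 3, 0 without HFD mouse 4 and 5 without LFD-MTX50 mouse 4, a mouse that enters this comparison only through the shared estimate of spread. When slide entered the fit as a random block, none was called (limma now gave an adjusted p of 0.14 to 0.15 for the 3 genes, against 5 genes with an unadjusted p below 0.05 without the block). Their differences there were −0.88 for Acly, −1.26 for Acaca and −3.16 for Pnpla3. At the methods' threshold, a 2-fold change and p up to 0.015, taken here as limma's unadjusted p, Acaca and Pnpla3 passed and Acly did not. Part of the adipocyte marker list moved with this comparison: 4 of 7 were called higher in HFD. The summed level of the 7 was 5.58 to 8.49 times the 75th percentile in HFD livers against 1.15 to 1.45 in LFD livers. Cfd weighed most in the HFD sums, with a log2 difference of 5.99 and an average of 2.01 in HFD. The others called were leptin (2.30), Cidec (1.32) and Plin1 (0.64), with limma adjusted p from 0.0025 to 0.007 over the 4. Adiponectin (−0.04), Retn (−0.23) and Fabp4 (1.01) were not called (adjusted p 0.9, 0.36 and 0.13). All 7 were above background on every array, and their part in the members' differences was not tested.

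In LFD-MTX50 vs LFD, Acly and Me1 were lower, 2 of 8 called lower and 0 higher, beside 10.5% of all genes lower and 17.6% higher. Again all 8 differences were negative (median −0.78, all genes 0.10). Acly and Me1 alone lay lower without overlap, against 11.5% of all genes that did so. Without LFD-MTX50 mouse 4, 4 genes were called, Acaca and Pklr being added. When slide entered the fit as a random block, none was called (limma now gave −1.19 with an adjusted p of 0.084 for Acly and −1.73 with 0.086 for Me1, against 3 genes with an unadjusted p below 0.05 without the block). In the same comparison 3 of 7 adipocyte markers were called higher (sums of 1.47 to 2.50), 2 of the 3 erythroid markers that passed the filter fell, with Hbb-bs and Ahsp not among those 3, and the erythroid sum was 1.01 to 1.57 in LFD-MTX50 livers against 15.8 to 22.7 in LFD livers. Of the 6 Kupffer cell and macrophage markers 2 were called lower (sums of 29.9 to 37.9 against 43.3 to 59.1). Their part was not tested.

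In HFD-MTX50 vs HFD, Pklr and Fads1 were lower, 2 of 8 called lower and 0 higher, beside 6.13% of all genes lower and 4.83% higher. Differences were negative for 7 genes, Acly on its brightest probe being the exception, with a median of −0.80 beside −0.04 over all genes. Fads1 was the 1 gene that lay lower without overlap, against 6.21% of all genes that did so. The count fell to 0 without HFD mouse 2, 3 or 4 and to 1 without HFD-MTX50 mouse 2, and 4 genes had an unadjusted p below 0.05. At the methods' threshold neither Pklr nor Fads1 passed, both being under 2-fold, while Me1 (−1.10) and Thrsp (−2.40) did. On the shared slide, with 2 mice against 2, all 8 differences were negative, from −3.79 for Thrsp to −0.15 for Acly. On the other slides they were −1.40 for Thrsp, −0.72 for Pnpla3, −0.71 for Me1 and −0.61 for Fads1. There Pklr gave −0.49, Slc25a1 −0.18, Acaca −0.06 and Acly 0.24. The shared slide held HFD-MTX50 mouse 2, the lowest of its group in 7 of 8 genes. Adipocyte markers summed to 1.63 to 2.82 in HFD-MTX50 against 5.58 to 8.49 in HFD. Of the 7, limma called 2 lower, Cfd (−5.32, adjusted p 0.0067) and Cidec (−0.95, adjusted p 0.014), and 1, adiponectin, higher (0.88, adjusted p 0.016). The erythroid sums ran from 1.35 to 54.6 across the 5 HFD-MTX50 livers, against 10.4 to 22.5 in HFD. Of the 5 neutrophil markers that passed the filter limma called none, although 3 had an unadjusted p below 0.05 and the median difference was 2.64, with S100a8 at 3.0 ± 1.12 (adjusted p 0.084). Ly6g was not among those 5, Ngp was above background on 7 of the 18 arrays, and the neutrophil sums were 45 to 122 in HFD-MTX50 against 47.6 to 67.8 in HFD. These sums rested mostly on Elane, which averaged 5.77 in HFD and 6.08 in HFD-MTX50 and was not called (0.31, limma adjusted p 0.17). They say little of the other 4 markers. Of the 6 Kupffer cell and macrophage markers limma also called none, with 4 at an unadjusted p below 0.05, a median of 0.57 and sums of 45.6 to 72.5 against 30.8 to 54.9. The part of these lists in the members' differences was not tested.

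**Figure D3:**
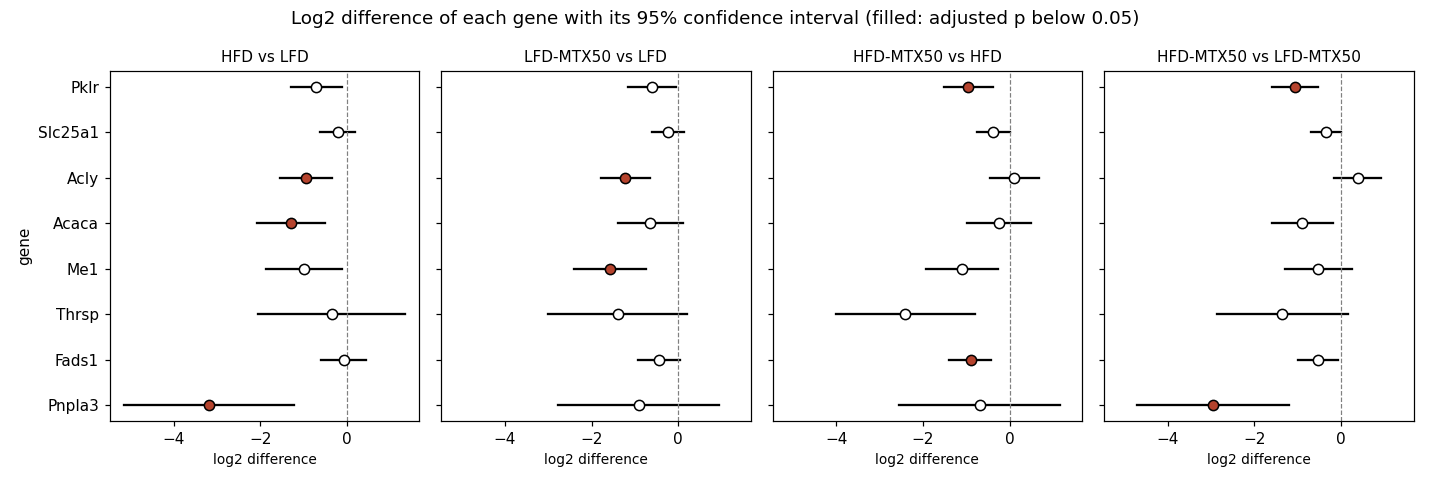
Log2 difference of each gene (horizontal axis) on its brightest probe with its 95% confidence interval from limma, for 4 comparisons side by side. Filled points have an adjusted p below 0.05. The filled points are Acly, Acaca and Pnpla3 in HFD vs LFD, Acly and Me1 in LFD-MTX50 vs LFD, Pklr and Fads1 in HFD-MTX50 vs HFD, and Pklr and Pnpla3 in HFD-MTX50 vs LFD-MTX50, all below 0.

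In HFD-MTX50 vs LFD-MTX50, Pklr and Pnpla3 were lower, 2 of 8 called lower and 0 higher, beside 8.75% of all genes lower and 7.37% higher. The median over the 8 genes was −0.72, beside −0.06 over all genes. Pklr and Pnpla3 were also those that lay lower without overlap, against 4.35% of all genes that did so. The count was 1 without LFD-MTX50 mouse 2 or 4 or HFD-MTX50 mouse 3, and 4 without LFD-MTX50 mouse 3. When slide entered the fit as a random block, none was called (limma now gave −1.08 with an adjusted p of 0.12 for Pklr and −2.75 with 0.19 for Pnpla3, against 4 genes with an unadjusted p below 0.05 without the block). Beside these, 3 of 8 hepatocyte markers were called lower (sums of 766 to 1110 in HFD-MTX50 against 1070 to 1270 in LFD-MTX50). Of the 6 Kupffer cell and macrophage markers 2 were called higher, Cd68 (1.06, adjusted p 0.014) and Csf1r (0.75, adjusted p 0.014), with sums of 45.6 to 72.5 against 29.9 to 37.9. The erythroid marker Alas2 was higher as well (1.68, adjusted p 0.017), with sums of 1.35 to 54.6 against 1.01 to 1.57. Their part was not tested. Of the gene lists of the route described further on, 3 of 13 from glucose entry to enolase, 1 of 16 from pyruvate to citrate, 3 of 13 regulators of lipogenesis and 4 of 11 genes raised by fasting were called lower here and 0 higher. Limma called none of the other lists' genes, with 0 to 3 of a list at an unadjusted p below 0.05, 3 of them among the 10 genes of fatty acid synthesis and desaturation (median −0.63). The test of whether the drug effect differed between the diets called 1 of 8 genes, Acly, beside 26.8% of all genes called in either direction, and this call was lost under quantile normalization (1.02, adjusted p 0.062) and when slide was a random block (1.22, adjusted p 0.10). That comparison and the ones with the same control mice share arrays, so their values stand side by side and are not independent.

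The median SD over the 8 genes was 0.75 in LFD-MTX50 and 0.50 in HFD-MTX50, beside 0.22 and 0.27 over all genes. It was 0.19 in LFD and 0.35 in HFD, beside 0.14 and 0.18. The 8 genes tended to be low in the same animals. LFD-MTX50 mouse 3 was the lowest of its group in 6 of 8 genes, and its mean over the 8 genes stood at −1.95 relative to the LFD mean. LFD-MTX50 mice 2 and 4 stood at −0.02 and −0.01, with Pnpla3 at 1.83 and 1.20. HFD-MTX50 mouse 2 was lowest of its group in 7 of 8 genes, at −2.52 on average, and HFD mouse 1 in 5 of 8, at −1.35. In every HFD-MTX50 liver all 8 genes were below the LFD mean.

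**Figure D4:**
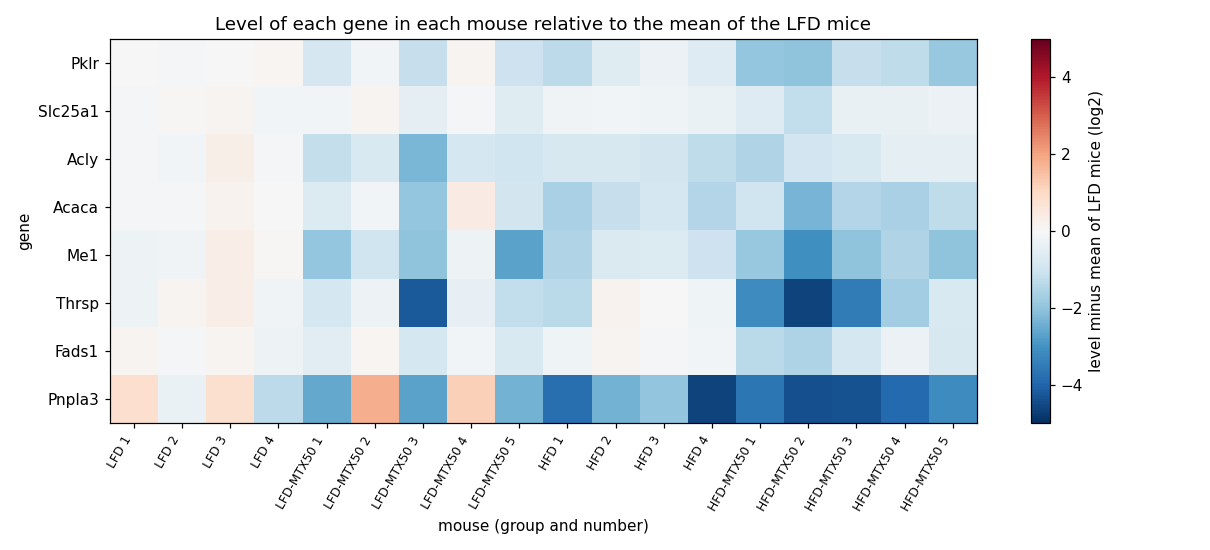
Level of each gene (rows) in each of the 18 mice (columns) minus the mean of the LFD mice, on the log2 scale, with blue for lower and red for higher. LFD-MTX50 mice 1, 3 and 5 average −1.09, −1.95 and −1.33 over the 8 genes and mice 2 and 4 stay near 0. Thrsp in HFD-MTX50 mouse 2 is at −4.63, and the darkest Pnpla3 cells come from a probe well above background on 3 of 4 HFD and 3 of 5 HFD-MTX50 arrays.

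As a description, with no test, Pearson's r between 2 of the genes over the 18 arrays ran from 0.45 to 0.87 over the 28 pairs (median 0.74), and after subtracting each group's mean from 0.33 to 0.82 (median 0.66). Slc25a1 with Fads1, Thrsp with Fads1 and Acaca with Pnpla3 stood at 0.87 over the arrays and at 0.82, 0.73 and 0.72 within groups, and Acly with Me1 the least close within groups (0.33). Among all other genes, the pattern most like that of Acaca was Fasn (r 0.93), fatty acid synthase itself, followed by Elovl6 (0.892). Elovl6 and Fasn were also among the 3 nearest to Thrsp (0.911 and 0.901), with Tkt, a transketolase, nearest at 0.919. Me1 was closest to Cs (0.95), citrate synthase, and to its near-identical copy Csl, whose probe may read the same RNA. Acly was nearest to Eno1b (0.904), a near-identical copy of enolase 1, and to Dbi (0.896). Pnpla3 was nearest to Acaca (0.874) and to Pnpla5 (0.868), Slc25a1 to Sc5d (0.933), a late enzyme of cholesterol synthesis, Pklr to Tmie (0.898) and Fads1 to Supt3 (0.941). These values pool diet, drug and single animals, and share the arrays.

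Around the 8 genes, the remaining enzymes of the route were read from lists that left the members out. Beside the counts of this and the next lists, 10.4% of all genes were called lower and 18% higher in HFD vs LFD. The shares were 10.5% and 17.6% in LFD-MTX50 vs LFD, and 6.13% and 4.83% in HFD-MTX50 vs HFD. Of 10 genes of fatty acid synthesis and desaturation, 8 were called lower in LFD-MTX50 vs LFD (median −1.48) and 3 in HFD-MTX50 vs HFD (median −1.22), and 0 in HFD vs LFD (median −0.92), where 4 of the 10 had an unadjusted p below 0.05 and Fasn gave −1.80 ± 0.71 (adjusted p 0.065). Scd1, the stearoyl-CoA desaturase, fell by 3.03 and 3.87 on the log2 scale in the 2 drug comparisons (adjusted p 0.049 and 0.036). Elovl5, an elongase of polyunsaturated fatty acids, fell by 1.91 and 1.27 (adjusted p 0.0045 and 0.049). Fasn itself was not called in either, at −1.67 (adjusted p 0.069) and −1.45 (adjusted p 0.15). The paper had already reported Fasn, Scd1, Acacb, Elovl5 and Elovl6 as lower with methotrexate from these same arrays, so their falls here are not separate evidence.

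Of 9 genes of the pentose phosphate route and isocitrate dehydrogenase, 2 fell in HFD vs LFD, 4 in LFD-MTX50 vs LFD and 1 in HFD-MTX50 vs HFD, where H6pd also rose (0.38, adjusted p 0.049). Rpia, Rpe, Tkt and Taldo1 among them yield no NADPH themselves, so these counts are not counts of NADPH-yielding enzymes. G6pdx, the first enzyme of the pentose phosphate route, was −1.59 on average in LFD and −2.64 in HFD, a fall of 1.05 (adjusted p 0.0052), and its drug effect differed between the diets by 0.82 (adjusted p 0.044). With the drug on the high fat diet Tkt fell by 0.75 (adjusted p 0.015), and Rpe fell by 0.98 in LFD-MTX50 vs LFD (adjusted p 0.0035).

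Of 13 genes from glucose entry to enolase, 3 were lower and 1 higher in HFD vs LFD, 3 lower and 1 higher in LFD-MTX50 vs LFD, and 2 lower in HFD-MTX50 vs HFD. Khk, the fructokinase, fell in all 3 (by 0.64, 0.79 and 0.68, adjusted p 0.033, 0.011 and 0.038). Of 16 genes from pyruvate to citrate, 2 were lower and 1 higher in HFD vs LFD, the lower being Pdhb (−0.73, adjusted p 0.018) and Pdk1 (−0.73, adjusted p 0.045). In LFD-MTX50 vs LFD 6 were lower, among them the alpha and beta subunits of the pyruvate dehydrogenase enzyme, Pdha1 (−0.62, adjusted p 0.0044) and Pdhb (−0.76, adjusted p 0.012), and the acetyltransferase of the same complex, Dlat (−0.76, adjusted p 0.018). Cs fell there as well, by 0.69 (adjusted p 0.017). In HFD-MTX50 vs HFD the called gene was Slc25a10, the mitochondrial dicarboxylate carrier, which was −2.30 on average in LFD, −1.41 in HFD, −2.43 in LFD-MTX50 and −2.84 in HFD-MTX50. It rose with diet by 0.89 (adjusted p 0.011) and fell with the drug on the high fat diet by 1.42 (adjusted p 0.005), where Slc25a1 gave −0.21 and −0.37.

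Of 10 paralogs of the members, 1 was lower in HFD vs LFD, 3 were lower and 2 higher in LFD-MTX50 vs LFD, and 2 were lower and 1 higher in HFD-MTX50 vs HFD. Acacb and Fads2 stand in the fatty acid synthesis list as well. Acacb, the mitochondrial acetyl-CoA carboxylase, and Fads2, the delta-6 desaturase, fell in LFD-MTX50 vs LFD by 1.74 (adjusted p 0.026) and 1.15 (adjusted p 0.0052). Fads2 also fell in HFD-MTX50 vs HFD, by 1.18 (adjusted p 0.013). Pnpla5, a close relative of Pnpla3, was well above background on all 4 LFD arrays and on none of the HFD arrays, a level at least 4.97-fold lower. That bound was not tested. Limma's adjusted p of 0.0077 belongs to the measured difference of −3.47, which rests on HFD values not well above background. Pnpla5 was above background on 2 of 5 LFD-MTX50 arrays and on none of the HFD-MTX50 arrays. Pnpla2, the adipose triglyceride lipase, rose with the drug on the high fat diet by 0.76 (adjusted p 0.023), and Me3, a mitochondrial malic enzyme, fell by 0.83 (adjusted p 0.014). Pkm, the other pyruvate kinase gene, rose by 0.65 in LFD-MTX50 vs LFD (adjusted p 0.022), where Pklr was not called.

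Of 13 regulators of lipogenesis, 4 were lower and 3 higher in HFD vs LFD, 2 lower and 2 higher in LFD-MTX50 vs LFD, and none was called in HFD-MTX50 vs HFD by limma, with 6 at an unadjusted p below 0.05. Mlxipl averaged 4.37 in LFD, 3.60 in HFD and 4.05 in both treated groups, a diet difference of −0.77 ± 0.17 (adjusted p 0.0069), and its drug effect differed between the diets by 0.77 (adjusted p 0.023). Srebf1 was not called in any comparison. Its differences were −0.27 in HFD vs LFD, −0.88 in LFD-MTX50 vs LFD and −1.19 in HFD-MTX50 vs HFD, and in HFD-MTX50 livers it ran from −3.75 to −0.67. Insig2, a sterol-regulated brake on SREBP processing, fell by 1.33 in LFD-MTX50 vs LFD (adjusted p 0.005). Of 8 regulators of acetyl-CoA carboxylase, including the AMP-activated kinase subunits, 1 was called in those 3 comparisons, Mlycd, malonyl-CoA decarboxylase, at −0.50 in LFD-MTX50 vs LFD (adjusted p 0.022).

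Feeding state and time of day move these genes in any liver, so genes of both were read beside them. Of 11 genes raised by fasting, 1 was lower and 2 higher in HFD vs LFD, 2 lower and 2 higher in LFD-MTX50 vs LFD, and 2 lower and 1 higher in HFD-MTX50 vs HFD. In LFD-MTX50 vs LFD, Pck1 and Igfbp1 rose by 1.31 and 2.77 while G6pc and Pdk4 fell by 1.21 and 1.28. Of 13 core clock genes, 3 were lower and 2 higher in HFD vs LFD, with Arntl at −1.69 and Dbp at 1.48, 2 lower and 3 higher in LFD-MTX50 vs LFD, and none was called in HFD-MTX50 vs HFD by limma, with 2 at an unadjusted p below 0.05. Their part in the members' differences was not tested.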

How the data were processed

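Liver RNA of 18 mice was hybridised to one-colour Agilent whole genome arrays, and the authors deposited scanner output with the processed signal of each spot as intensity, from Agilent Feature Extraction 10.7.3.1 per the labels. Their methods name GeneSpring for the array analysis, with a 2-fold change and p up to 0.015. They do not give the normalization, the test used on the arrays or whether p was adjusted. From the deposited intensity, control and outlier spots (124 to 294 per array) were left out, spots of a probe were averaged, and log2 of the signal was shifted by the 75th percentile of the array. Of 39429 probes, 35738 that were well above background on at least 4 arrays were kept. Each gene was read on its brightest kept probe. The 4 groups were fitted together with limma 3.58.1 in R 4.3.3, and p-values were adjusted by Benjamini-Hochberg over the kept probes, and 347 kept probes lacked a value on some array. The code was tested on simulated data. Precision is limited by the number of arrays. The labels tie each array to a mouse, and p-values measure the spread between these mice.

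Named were all members and their paralogs, at most 4 called genes of each other list per comparison by size of difference, well known genes of those lists called or not (some are not reported here), and the 3 genes most correlated with each member. The members and lists were chosen with earlier results of these data known. Alternatives were background correction by normexp with an offset of 50 (on median signals, since no mean signal was used here), quantile and median scaling, other filters on dim probes, outlier spots kept, the deposited series table, a variance trend, only the groups compared, the methods' t-test, the methods' threshold, the slide and the replicate number as blocks, the mean of a gene's probes, and leaving out each array. Replicate numbers did not pair the mice: over 25 pairs of the same number, deviations from the group means correlated at −0.31 to 0.25, with 7 pairs over 0.1.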

Additional observations from a re-analysis of the deposited data

Results flagged for a closer look

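Among 32 sets of 1 gene in 1 group, 3 held a mouse far from the rest, where chance alone gives such a gap in about 1 set in 20. Acly in LFD mouse 3 stood at 5.66, above the other LFD mice. Acly in LFD-MTX50 mouse 3 stood at 3.06 and Thrsp in the same mouse at −0.29, both below the other LFD-MTX50 mice. The effect of methotrexate on Acly differed between the diets by 1.34 on the log2 scale (limma interaction, adjusted p 0.019), and the dim Acly probe gave −0.38 (adjusted p 0.20).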

How the results depend on the processing

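The number of members called in HFD vs LFD was 3, and it became 0 with normexp, 5 with only the groups compared, 0 when slide was a random block, and 0 to 5 when single arrays were left out. In HFD-MTX50 vs HFD it was 2, and became 0 with normexp, with only the groups compared and with Student's t-test after Benjamini-Hochberg adjustment, and 0 to 3 when single arrays were left out. With the replicate number as a block it was also 0 (adjusted p 0.057 for Pklr and 0.06 for Fads1), and the block moved no other count of members called, although the numbers do not pair the mice and 5 of 18 samples correlated best with their own number. At the methods' threshold (2-fold, p up to 0.015 taken as unadjusted) it was again 2, but Me1 and Thrsp in place of Pklr and Fads1, and Acly was lost in HFD vs LFD. In LFD-MTX50 vs LFD the count was 2, and became 1 with the t-test, 0 when slide was a random block and 2 to 4 when single arrays were left out. In HFD-MTX50 vs LFD-MTX50 it was 2, and became 0 with normexp, only the groups compared, the t-test and slide as random block, 1 with only probes above background on all arrays, and 1 to 4 when single arrays were left out. For the difference of the drug effects it was 1, and became 0 with normexp, quantile normalization, slide as random block and the mean of a gene's probes, and stayed at 1 in every fit without 1 array. Counts of 0 are limma's at an adjusted p below 0.05, apart from the t-test, and 5, 4, 3, 4 and 1 members had an unadjusted p below 0.05 in the reported fit, taking the comparisons in the order above.

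Directions turned for values that were not called, save 1. Acly in HFD-MTX50 vs HFD became −0.05 with normexp, −0.12 with quantile normalization, −0.15 when slide was a fixed block and −0.28 with the mean of probes, and −0.2 with the mean of probes in HFD-MTX50 vs LFD-MTX50. Pnpla3 with normexp became 0.99 in HFD-MTX50 vs HFD, 0.02 in LFD-MTX50 vs LFD and, where it had been called, 0.17 in HFD-MTX50 vs LFD-MTX50. Fads1 in HFD vs LFD became 0.03 with quantile normalization and 0.02 when slide was a random block. In the difference of drug effects normexp gave 0.25 for Pklr and 0.06 for Slc25a1, and leaving out single arrays gave −0.26 to 0.91 for Pnpla3 and −0.23 to 0.02 for Slc25a1. With normexp the median level of kept probes rose by up to 1.73 on some arrays, and nearly all calls on the array were lost outside LFD-MTX50 vs LFD. Of 547 single-gene values under other settings 490 kept their direction and call, as did 681 of 720 without 1 array. Of 45 list counts, 34 moved by over 1.5 times with normexp, 12 with quantile normalization and 11 with median scaling.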
